A study of Mus musculus with 52 samples.

Results

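ATAC-seq measures accessible chromatin by letting Tn5 transposase cut DNA that is not wrapped or covered, and the accessible stretches of one library are then called as peaks. The accessible chromatin of posterior pituitary endothelial cells (ECs) was compared between beta-catenin stabilized mice (2 libraries) and WT mice (2 libraries). Peaks were kept if they rose more than 2-fold over local background (fold enrichment) and had a −log10 q above 2, and mitochondrial DNA was not used. Kept peaks of the 4 libraries that overlapped by at least 1 bp were joined into 42209 regions. Regions with a peak in both stabilized libraries and in neither WT library are called gained (7437 of 42209), and those with a peak in both WT libraries and in neither stabilized library are called lost (539 of 42209). A further 16155 regions had a peak in all 4 libraries, and the other 18078 had a peak in 1 or 3 libraries, or in 1 of each group.

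WT mice carried Tie2-GFP, which marks ECs with green fluorescent protein, and stabilized mice carried Tie2-GFP, Pdgfb-CreER and BcatEx3fl. In the stabilized mice, 4-hydroxytamoxifen given after birth switched on Cre in ECs, which cut exon 3 out of a single copy of Ctnnb1. Beta-catenin made from that copy lacks its degradation signal. The groups therefore differed in the Cre transgene and the drug as well as in the allele, and these cannot be told apart here. Recombination was mosaic, so a stabilized library can hold unrecombined ECs. All mice were adult and labelled male, the pituitaries of many mice were pooled for each replicate, and GFP-positive cells were sorted. Neither the peak lists nor counts summed over a gene resolve exon 3, so they do not check the deletion. The same 2 genotypes were also profiled in cerebellum and anterior pituitary ECs (2 ATAC-seq libraries each, 8 in all), and RNA-seq of the sorted ECs was available for the same 3 tissues (2 libraries a group, 12 in all, 17260000 to 33459000 reads, to the nearest 1000).

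One library did not match its label. The library labelled stabilized replicate 2 had 0 peaks in the first 4 Mb of the Y chromosome, where the other 11 libraries had 6 to 12, had no peak at the starts of the Y-linked genes Ddx3y, Eif2s3y and Uty, and was the only library with a peak at the start of Xist, which silences an X chromosome in female cells. It also had the most peaks of the 4 (38583, against 28926 in stabilized replicate 1 and 21050 and 20634 in WT replicates 1 and 2), and 10970 regions were called in it alone. The main counts are given with and without it. The number of reads behind each peak list is unknown, so a library with more peaks may be a more deeply sequenced one, and for this reason the main counts and shares were repeated on the 20000 peaks of highest −log10 q in each library, called the equal-length lists. The motif profile by distance, the height bands and the shares near single gene lists were computed on the thresholded peaks alone. All 14 of 14 pan-endothelial genes, such as Pecam1, Cdh5 and Tek, had a peak within 1 kb of a start in each of the 4 libraries. Of 10 microglia and macrophage markers, a peak at a start was found for 1 and 0 in the WT libraries and for 1 and 4 in the stabilized libraries, and their summed RNA level was 7.27 and 8.09 CPM (counts scaled by library size) in WT and 368 and 268 CPM in stabilized ECs. All 10 of these markers had a gained region within 100 kb, 19 gained regions in all, against 50.5% of all protein-coding genes with one, and on the equal-length lists 7 of the 10 did, against 23.0% of all. The part of such cells in the 7437 was not tested. The summed RNA level of the 14 pan-endothelial genes was 17969 and 20178 CPM in WT and 8975 and 10532 CPM in stabilized ECs. For 10 mural cell markers it was 598 and 575 CPM in WT and 395 and 314 CPM in stabilized ECs. The sums of the other marker lists overlapped between the groups, with anterior pituitary endocrine markers at 2443 and 452 CPM in WT and 330 and 780 CPM in stabilized ECs. Fewer cells of a type and less RNA or accessible DNA per cell cannot be told apart in such bulk libraries.

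Canonical Wnt signalling acts by keeping beta-catenin from degradation, so that it enters the nucleus and joins TCF/LEF transcription factors on DNA at their target genes. In brain capillaries this pathway sustains the blood-brain barrier, with sealed tight junctions and a set of nutrient transporters in ECs. Posterior pituitary capillaries lie outside the barrier and are fenestrated, which lets hormones pass into blood. The comparison asks which stretches of chromatin are accessible in these permeable ECs only when beta-catenin is stabilized, or only when it is not.

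The gained regions that carry the clearest sequence feature are shown first. Each reaches 100 bp to either side of the strongest summit, on the plus strand of GRCm38 (mm10), 5′ to 3′, with matches to the TCF/LEF letters ATCAAAG or TTCAAAG, or their reverse complements, in capitals. The first set is made of 4 of the 10 gained regions of highest fold enrichment, those with a match, each named for the gene with the nearest start.
Rhobtb1 region, chr10:69276182-69276382: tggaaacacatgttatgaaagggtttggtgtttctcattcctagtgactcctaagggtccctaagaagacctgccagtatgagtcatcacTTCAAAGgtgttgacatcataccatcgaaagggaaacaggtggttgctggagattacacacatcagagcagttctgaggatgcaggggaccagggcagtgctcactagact
Jag1 region, chr2:137204479-137204679: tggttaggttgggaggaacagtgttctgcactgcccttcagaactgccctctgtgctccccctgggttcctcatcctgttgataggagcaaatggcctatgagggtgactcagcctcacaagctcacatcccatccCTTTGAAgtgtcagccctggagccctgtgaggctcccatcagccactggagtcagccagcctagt
Lmntd1 region, chr6:145604756-145604956: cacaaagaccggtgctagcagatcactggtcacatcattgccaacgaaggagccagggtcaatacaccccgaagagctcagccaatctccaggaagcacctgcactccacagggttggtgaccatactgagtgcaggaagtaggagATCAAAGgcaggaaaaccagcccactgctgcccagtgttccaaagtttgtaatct
Abcc6 region, chr7:46013462-46013662: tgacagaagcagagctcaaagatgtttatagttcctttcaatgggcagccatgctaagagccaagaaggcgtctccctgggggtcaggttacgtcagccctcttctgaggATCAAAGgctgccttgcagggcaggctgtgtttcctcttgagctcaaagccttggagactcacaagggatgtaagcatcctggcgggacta

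The Rhobtb1, Lmntd1 and Abcc6 regions lay in introns and the Jag1 region lay between genes, 87.9 kb upstream of the start of Jag1, which encodes a Notch ligand. In the Jag1 region, fold enrichment was 14.5 and 12.4 in the stabilized libraries with no peak in either WT library, and a peak was called there in both WT cerebellum libraries and in neither WT anterior pituitary library. The Rhobtb1 and Lmntd1 regions had a peak in all 8 libraries of cerebellum and anterior pituitary ECs. The Abcc6 region had one in both WT cerebellum libraries and in 1 WT anterior pituitary library. The second set is made of gained regions with matches near genes of the Wnt pathway and of the barrier, chosen with their values known.
Axin2 upstream region, chr11:108910777-108910977: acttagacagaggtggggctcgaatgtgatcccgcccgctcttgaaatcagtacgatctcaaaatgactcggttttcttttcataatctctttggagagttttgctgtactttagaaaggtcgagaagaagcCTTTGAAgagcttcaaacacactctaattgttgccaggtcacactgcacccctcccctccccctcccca
Axin2 intron region, chr11:108936443-108936643: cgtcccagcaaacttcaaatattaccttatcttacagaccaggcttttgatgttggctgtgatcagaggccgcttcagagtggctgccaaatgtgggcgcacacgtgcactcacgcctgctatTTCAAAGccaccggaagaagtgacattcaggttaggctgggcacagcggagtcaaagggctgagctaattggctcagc
Nkd1 upstream region, chr8:88495222-88495422: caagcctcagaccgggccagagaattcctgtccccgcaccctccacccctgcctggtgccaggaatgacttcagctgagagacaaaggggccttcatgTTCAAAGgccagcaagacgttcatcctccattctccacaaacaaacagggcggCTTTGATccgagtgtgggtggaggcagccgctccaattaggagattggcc
Tnfrsf19 intron region, chr14:61012505-61012705: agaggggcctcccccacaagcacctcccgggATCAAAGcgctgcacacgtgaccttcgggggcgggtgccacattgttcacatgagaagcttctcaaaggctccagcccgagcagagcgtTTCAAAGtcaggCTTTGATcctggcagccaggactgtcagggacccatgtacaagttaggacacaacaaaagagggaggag
Slc2a1 upstream region, chr4:119044258-119044458: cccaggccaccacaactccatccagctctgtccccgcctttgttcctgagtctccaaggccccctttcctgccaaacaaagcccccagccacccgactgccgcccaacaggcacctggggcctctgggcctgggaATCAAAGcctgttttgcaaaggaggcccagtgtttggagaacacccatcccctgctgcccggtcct
Mfsd2a downstream region, chr4:122914359-122914559: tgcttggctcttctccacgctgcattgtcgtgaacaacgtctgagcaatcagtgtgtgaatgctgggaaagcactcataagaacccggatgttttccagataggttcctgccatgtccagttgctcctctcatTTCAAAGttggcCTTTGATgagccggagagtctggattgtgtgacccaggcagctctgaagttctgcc
Slco1a4 intron region, chr6:141827718-141827918: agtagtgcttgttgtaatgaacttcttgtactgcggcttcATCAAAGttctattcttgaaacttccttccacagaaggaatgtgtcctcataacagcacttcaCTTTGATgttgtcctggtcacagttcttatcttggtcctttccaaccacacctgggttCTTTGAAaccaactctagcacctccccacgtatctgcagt
Cldn5 upstream region, chr16:18720717-18720917: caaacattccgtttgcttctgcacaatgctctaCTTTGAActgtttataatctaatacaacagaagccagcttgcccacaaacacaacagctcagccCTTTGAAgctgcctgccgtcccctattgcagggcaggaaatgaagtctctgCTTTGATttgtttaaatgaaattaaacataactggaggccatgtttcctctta

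The Tnfrsf19, Slco1a4 and Cldn5 windows each held 3 matches, the Nkd1 and Mfsd2a windows held 2, and the other 3 windows held 1. A match describes these letters and is not shown to be a bound site.

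Gained regions made up 17.6% of the 42209 regions and lost regions 1.28%. With 2 libraries against 2, an exact permutation test of one region cannot go under a p of 0.333, so these are counts of calls and not tests. On the equal-length lists the excess of gained regions over lost regions was much smaller, with 1868 gained (7.1% of 26308) and 1328 lost (5.05%). The gained regions of the equal-length lists were nearly all gained by the threshold also (1741 of 1868, 93.2%, and 23.4% of the 7437). Of the 1328 regions lost on the equal-length lists, 444 were lost by the threshold (33.4%, and 82.4% of the 539), while 519 (39.1%) overlapped regions that were called in all 4 libraries by the threshold. Without stabilized replicate 2, 9370 of 32221 regions were gained (29.1%) and 965 were lost (2.99%). With a library left out, the other library of its group decides alone, so both counts tend to rise by construction. Without stabilized replicate 1, 18556 were gained and 646 were lost. The lost count moved most without a WT library, to 1472 without WT replicate 1 and 1576 without WT replicate 2. With fold enrichment over 4 and −log10 q over 5, 254 were lost.

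**Figure D1:**
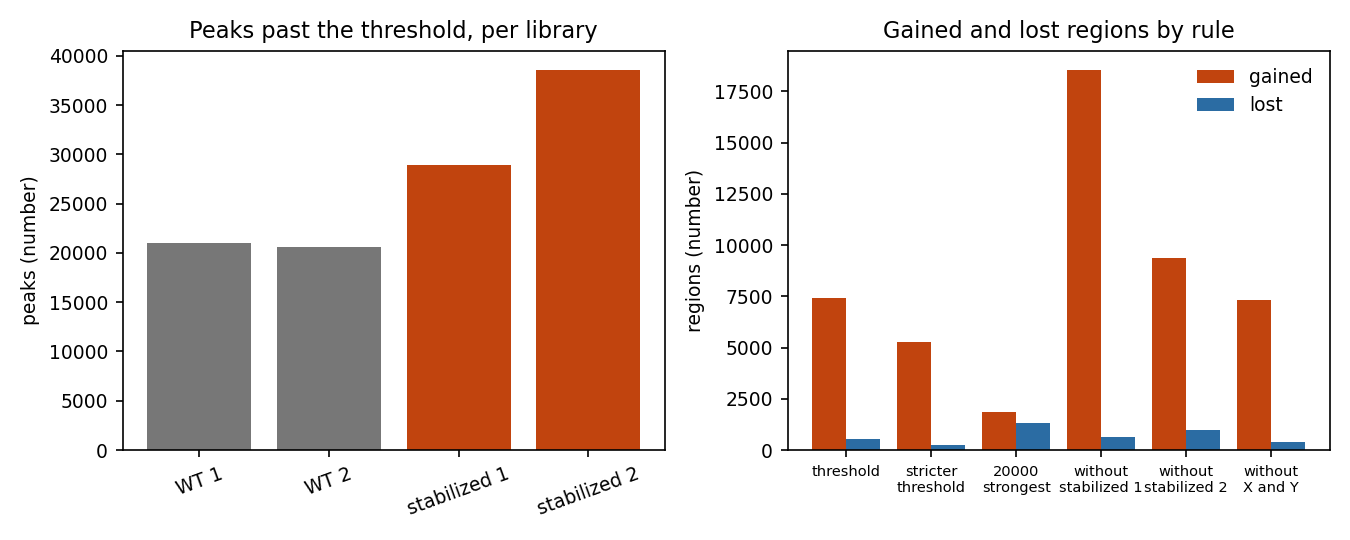
Left, number of kept peaks in each of the 4 posterior pituitary libraries. Right, number of gained (orange) and lost (blue) regions under each rule, with bars from 0. The stabilized libraries held 28926 and 38583 peaks against 21050 and 20634 in WT, and on the 20000 strongest peaks of each library the counts fell to 1868 gained and rose to 1328 lost.

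Gained regions were lower than regions called in every library. Their median fold enrichment was 4.46 and 4.31 in the stabilized libraries, with the lowest at 2.007 and 2.002 and the highest at 16.1 and 15.5. Regions called in all 4 libraries had medians of 10.0 and 9.68 in the same libraries, and 7.09 and 7.02 in WT. Lost regions had medians of 3.73 and 3.72 in the WT libraries. Just outside the rule, 115 gained regions (1.55%) had a WT peak that was listed but under the threshold, and 26 lost regions (4.82%) had such a peak in a stabilized library. The 10 gained regions of highest fold enrichment lay nearest the starts of Dynlt1b, Trim55, Tulp4, Rhobtb1, Jag1, Lmntd1, Atp1b3, Abcc6, Gm19684 and Dyrk1a, and all 10 were gained on the equal-length lists also. Of these 10, only the Jag1 region had no peak in WT anterior pituitary ECs.

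Gained regions were mostly away from gene starts. A summit lay within 1 kb of a start in 14.7% of gained regions, 9.09% of lost regions and 64.9% of regions called in all 4 libraries, against 35.0% of all 42209. Introns held 43.8% of gained regions and 38.0% lay between genes, and the median distance to a start was 12.9 kb. Lost regions lay between genes in 68.1% of cases. In 52.5% of lost regions more than 50% of that same window about the summit was repeat sequence (soft-masked in the genome), against 1.53% of gained regions, 1.82% of regions called in all 4 libraries and 5.96% of all regions.

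Many lost regions lay on the Y chromosome or in repeats. Of 539 lost regions, 102 lay on Y and 24 on X, which leaves 413 on autosomes. Among all 42209 regions 307 lay on Y and 1049 on X. Beyond the first 4 Mb of Y, WT libraries of all 3 tissues had 135 to 306 peaks and stabilized libraries 18 to 33, so this difference was not particular to the posterior pituitary or to stabilized replicate 2. Of the 413 autosomal lost regions, 40.9% were more than 50% repeat sequence. On the equal-length lists 1162 of the 1328 lost regions were autosomal, and more than 50% of the window was repeat sequence in 30.6% of the 1328 and in 24.1% of the 1162, against 6.50% of all regions of those lists. The 10 protein-coding genes with the most lost regions within 100 kb had 6 to 9 each, and 9 of the 10 are predicted genes on Y. The exception was C130026I21Rik on chromosome 1, with 6. Among the lost regions of highest fold enrichment in WT, those with no soft-masked sequence in the window lay near Tmem56 (8.04 and 7.24 in WT), Mrto4 (6.87 and 8.69), Sparcl1 (6.71 and 6.95) and Gm21738 (6.47 and 7.03), and soft-masking does not mark every repeat. In the 7 gene lists that were no marker lists, 5 genes had a lost region within 100 kb by the threshold, namely F11r, Foxc1, Tek, Flt1 and Plxnd1 with 1 each, and 1 neuron marker and 1 oligodendrocyte marker had one also (4.58% of all protein-coding genes did). The weakest peak kept on the equal-length lists had a −log10 q of 3.28 and 2.87 in the WT libraries and of 9.81 and 16.5 in the stabilized libraries, so a region lost on the equal-length lists may hold a called peak in stabilized ECs. On those lists, where 13.4% of all genes had a lost region, the count was 6 of 14 pan-endothelial genes, 5 of 20 permeable capillary genes, 4 of 16 transcription factor genes, 4 of 24 matrix and guidance genes and 1 of 13 tight junction genes. A lost region also lay near 5 of 10 mural cell markers and near 0 to 2 genes of each other marker list. The one at Tek, which encodes the angiopoietin receptor of ECs, lay 1.27 kb upstream of its start with a fold enrichment of 3.21 and 2.83 in WT.

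TCF/LEF matches were more frequent in gained regions than in any other class. Within 100 bp of the summit, 1112 of 7437 gained regions (15.0%) held a match, against 2.78% of lost regions, 3.37% of regions called in all 4 libraries and 6.67% of all regions. Outside promoters the shares were 16.2% of gained, 2.86% of lost, 5.49% of always-called and 8.72% of all regions. On the equal-length lists they were 18.4% of gained and 3.09% of lost regions. In bins of 50 bp, the share of gained regions with a match rose from 1.94% and 1.88% at 500 bp on either side to 4.71% beside the summit, whereas in regions called in all 4 libraries it fell from 1.55% and 1.59% to 0.774%. Without stabilized replicate 2 the share in gained regions was 15.0%, and without stabilized replicate 1 it was 9.64%. The 10970 regions called only in stabilized replicate 2 held a match in 6.48% of cases, and the 1420 called only in stabilized replicate 1 in 14.4%.

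The share of matches also varied with the height of the gained region. In 4 bands of the lower of the 2 fold enrichments, split at 3.27, 3.91 and 4.83, a match was found in 13.1%, 11.2%, 16.1% and 19.5% of regions from the lowest band to the highest. Other factor families were searched in the same way. Letters of SOX factors (AACAAAG or AACAATG), some of which work in EC identity, were found in 13.1% of gained, 5.18% of always-called and 7.89% of all regions, and those of AP-1 (TGACTCA or TGAGTCA) in 12.7%, 7.17% and 9.34%. Both strands were searched, and the SOX letters overlap the TCF/LEF letters in their shared CAAAG. ETS letters (CCGGAAG or CAGGAAG), bound by the factors that open EC genes in general, were at 29.4%, 27.1% and 25.8%. KLF/SP letters (GGGCGGG or GGGTGGG), common in promoters, were at 17.5% of gained, 47.6% of always-called and 29.2% of all regions. CTCF matches were at 1.67%, 1.64% and 1.74%. With promoters left out, AP-1 letters were in 13.5% of gained and 15.4% of always-called regions, the opposite order. ETS letters turned also, with 30.1% and 31.0%, while SOX letters kept their order, with 13.9% and 9.88%.

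**Figure D2:**
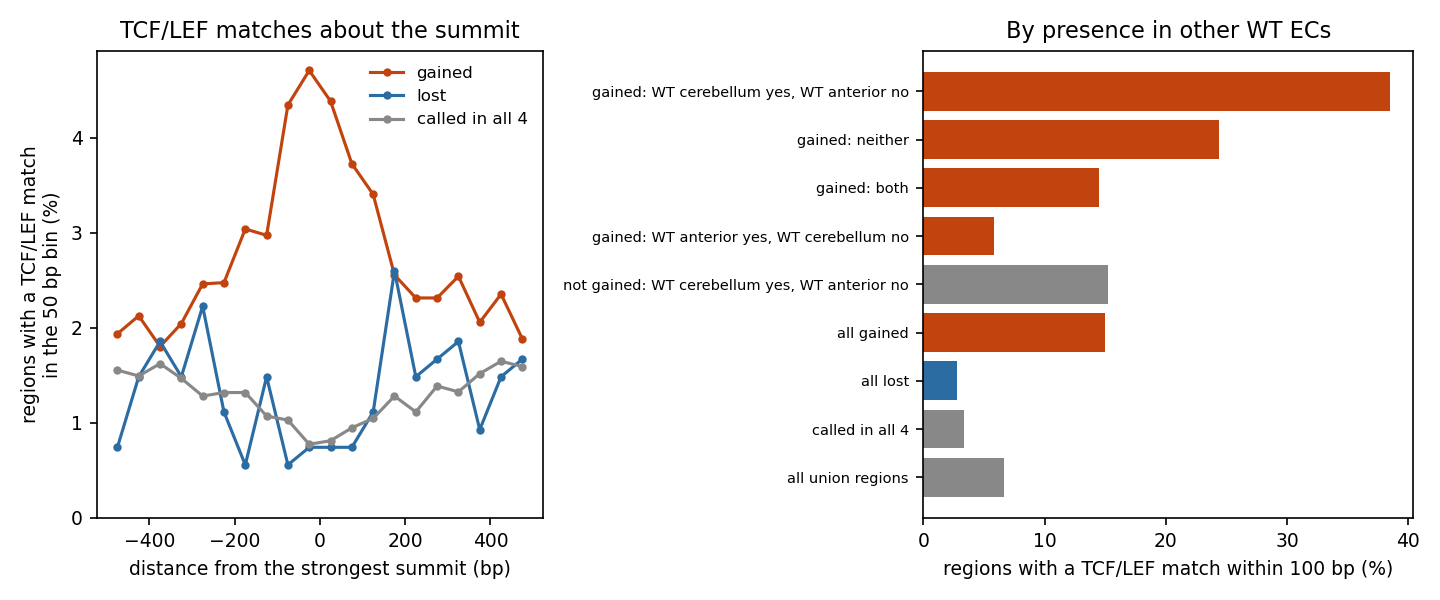
Left, percentage of regions with a TCF/LEF match in each 50 bp bin, by distance from the strongest summit, for gained (orange), lost (blue) and always-called (grey) regions. Right, percentage of regions with a match within 100 bp of the summit, by class. The gained curve is highest beside the summit (4.71%), and the longest bar is that of gained regions called in both WT cerebellum libraries and in neither WT anterior pituitary library (38.5%).

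The cerebellum and anterior pituitary libraries did not enter the rule. Per the study's methods the anterior and posterior lobes were separated from the same dissected pituitaries, so the libraries of the 2 lobes may share mice and are not independent. Cerebellar ECs have a blood-brain barrier and anterior pituitary ECs do not. A peak was called at a gained region in 43.6% and 36.1% of cases in the WT cerebellum libraries, 61.2% and 58.0% in stabilized cerebellum, 61.8% and 73.5% in WT anterior pituitary, and 86.2% and 87.4% in stabilized anterior pituitary. Each stabilized library was above both WT libraries of its tissue. All 42209 regions were also called more often in stabilized libraries, since in cerebellum the share was 60.7% and 58.6% against 51.9% and 49.1% in WT, and in anterior pituitary 76.0% and 77.8% against 68.0% and 75.3%. For lost regions the direction was the opposite, with 55.1% and 59.2% in WT cerebellum against 20.97% and 20.0% in stabilized cerebellum, and 48.4% and 52.7% in WT anterior pituitary against 17.1% and 14.7% in stabilized anterior pituitary. Regions called in all 4 posterior pituitary libraries were called in 89.6% to 99.4% of cases in the 8 other libraries. The shares for gained regions were lower without stabilized replicate 1, where a peak in stabilized replicate 2 alone is enough. The gained set then also takes in regions such as the 10970 called only in stabilized replicate 2. Of that larger set, 15.5% were called in both WT cerebellum libraries, against 30.9% of the 7437. In both stabilized anterior pituitary libraries the share was 58.6%, against 82.9%.

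The order of the tissues differed on the equal-length lists, which change both the gained set and the peaks of the other tissues (36860 and 45040 by the threshold in WT anterior pituitary, 26394 and 24020 in WT cerebellum). There, gained regions were called in 51.2% and 49.2% of cases in WT cerebellum, 36.8% and 42.5% in WT anterior pituitary, 61.2% and 60.1% in stabilized cerebellum and 65.3% and 61.5% in stabilized anterior pituitary. WT cerebellum was then above WT anterior pituitary, and the stabilized libraries remained above the WT libraries of their tissue. For all regions of the equal-length lists the shares were 62.3% and 64.6% in WT cerebellum, 62.7% and 62.7% in stabilized cerebellum, 67.7% and 68.9% in WT anterior pituitary and 70.3% and 69.9% in stabilized anterior pituitary.

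**Figure D3:**
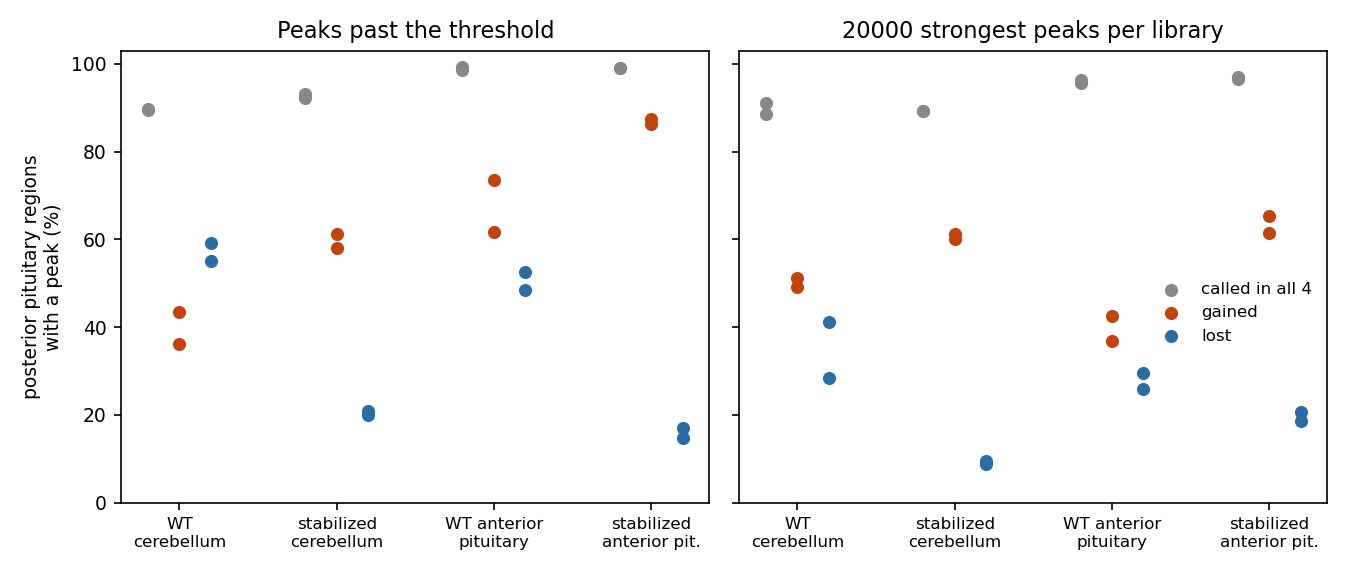
Percentage of gained (orange), lost (blue) and always-called (grey) posterior pituitary regions with a peak in each of the 8 other EC libraries, 1 point a library, 2 per genotype and tissue; left, kept peaks, and right, the 20000 strongest of each library. Gained regions were more often called in stabilized than in WT libraries of both tissues, and lost regions less often.

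A set of regions was open in both WT cerebellum libraries and in neither WT anterior pituitary library. There were 1351 such cerebellum-type regions among the 42209, and 722 of them were gained (53.4%, against 17.6% of all regions). They were 9.71% of gained, 9.65% of lost (52 of 539) and 3.20% of all regions. The opposite type, open in both WT anterior pituitary and in neither WT cerebellum library, was larger, with 30.4% of gained (2259) and 18.7% of all regions (7913). On the equal-length lists, 29.5% of 1506 cerebellum-type regions were gained, against 7.1% of all. Without stabilized replicate 2 it was 77.9% of cerebellum-type regions, against 29.1%. TCF/LEF matches were most frequent here, in 38.5% of the 722 gained regions, against 15.3% of the 629 cerebellum-type regions that were not gained. The 2 shares were 35.3% and 14.3% on the equal-length lists, 36.3% and 4.96% without stabilized replicate 2, and 30.7% and 5.09% without stabilized replicate 1. The 2259 gained regions of the opposite type held a match in 5.80% of cases, below the 6.67% of all regions. Those open in all 4 of these WT libraries (1265) held one in 14.5%, and those open in none of the 4 (786) in 24.4%. A further cut of the gained regions, those open in both stabilized and in neither WT anterior pituitary library (944), held a match in 37.5%. SOX letters were also more frequent in the 722 regions (21.3%), while AP-1 letters were less so (6.65%). No peak was called in any of the 8 other libraries at 159 gained regions (2.14%), 57 lost regions (10.6%) and 3770 of all regions (8.93%).

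Regions open in all 4 libraries could be compared by height. Of 16155, 433 were higher (2.68%) and 825 lower (5.11%) in stabilized ECs at an adjusted p under 0.05 in limma, after each library was centred on its median log2 fold enrichment. The centring sets these directions. Before centring, the 2 WT medians were 2.83 and 2.81 and the 2 stabilized medians 3.33 and 3.28, and without centring 6945 regions were higher and 174 lower. No region passed when either WT library was left out (limma, 1344 higher and 2277 lower at an unadjusted p under 0.05 without WT replicate 1, and 1284 and 2250 without WT replicate 2), which leaves 1 residual degree of freedom a region and assumes that the lone WT library varies like the stabilized ones. Without stabilized replicate 2, 12 were higher and 66 lower, and without stabilized replicate 1, 129 and 382. The greatest rise and the greatest fall, described next, were 1.24 to 1.34 and −2.16 to −1.85 on the centred log2 scale when 1 library was left out. Among the rises and falls named below, the widest such ranges were 0.998 to 1.46 near Borcs5 and −2.26 to −1.67 near Epm2a. The region with the greatest rise lay 58.0 kb upstream of Max, which encodes the partner of MYC, with a fold enrichment of 3.92 and 4.14 in WT and 13.6 and 13.9 in stabilized ECs (centred log2 difference 1.29 ± 0.13 SE, limma adjusted p = 0.0088). The other regions with the 5 greatest rises lay near Spag9, Borcs5, Emid1 and Trim8. The greatest fall was between genes, 789 kb from Ddx18, with 15.5 and 14.3 in WT and 5.86 and 4.57 in stabilized ECs, and those that followed lay near Kpna1, Epm2a, Apbb1ip and Ttc21b.

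Gained regions could be set beside RNA of the same kind of cells. In posterior pituitary ECs, 216 of 14576 protein-coding genes tested were higher (1.48%) and 95 were lower (0.652%) in stabilized ECs, at an adjusted p under 0.05 in edgeR's quasi-likelihood test and a change of at least 2-fold. Leaving out 1 library gave 179 to 772 higher and 20 to 372 lower genes of all kinds, against 226 (1.26%) and 100 (0.559%) of 17900 with all of them. A fit of the 4 posterior pituitary libraries alone gave 94 higher and 12 lower of 14232 genes of all kinds. DESeq2 gave 807 and 377 of 14776. On simulated data the quasi-likelihood test recovered 31.0% of genes changed 4-fold, so genes that did not pass may have changed. Of the 8841 tested genes with a gained region within 100 kb of the gene body, 173 were higher (1.96%) and 72 lower (0.814%), while of the 5484 with neither a gained nor a lost region, 40 were higher (0.729%) and 22 lower (0.401%). Both shares were greater with more gained regions, up to 5 higher and 4 lower of the 72 genes with 10 or more (6.94% and 5.56%). Near lost regions (665 genes), 6 were higher (0.902%) and 4 lower (0.602%). Gained regions were not found only near genes that rose, and 75.8% of the lower genes had one, against 80.1% of the higher genes and 60.7% of all tested genes. On the equal-length lists a gained region lay near 37.9% of lower, 47.7% of higher and 28.4% of all tested genes. A lost region lay near 22.1%, 10.6% and 14.9% of them on those lists, and near 4.21%, 2.78% and 4.56% by the threshold.

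Genes were also split by the number of regions within 100 kb that were called in all 4 libraries. Among genes with 0 to 4 always-called regions within 100 kb, 3.08% of those with a gained region were higher, against 0.869% of those without, while the shares of lower genes were 0.318% and 0.334%. Among genes with 5 to 9, the shares of higher genes were 1.09% and 0.375% and those of lower genes 1.14% and 0.562%.

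The gained regions near genes that rose had other features than those near genes that fell. Of the 533 distinct gained regions within 100 kb of a higher gene, 22.7% held a TCF/LEF match and 24.4% were cerebellum-type. Of the 260 near a lower gene, 9.23% held a match and 4.23% were cerebellum-type. Over all 7437 gained regions these shares were 15.0% and 9.71%. A region can lie near genes of more than 1 kind, and neighbouring regions share a locus, so these shares are given with no test.

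**Figure D4:**
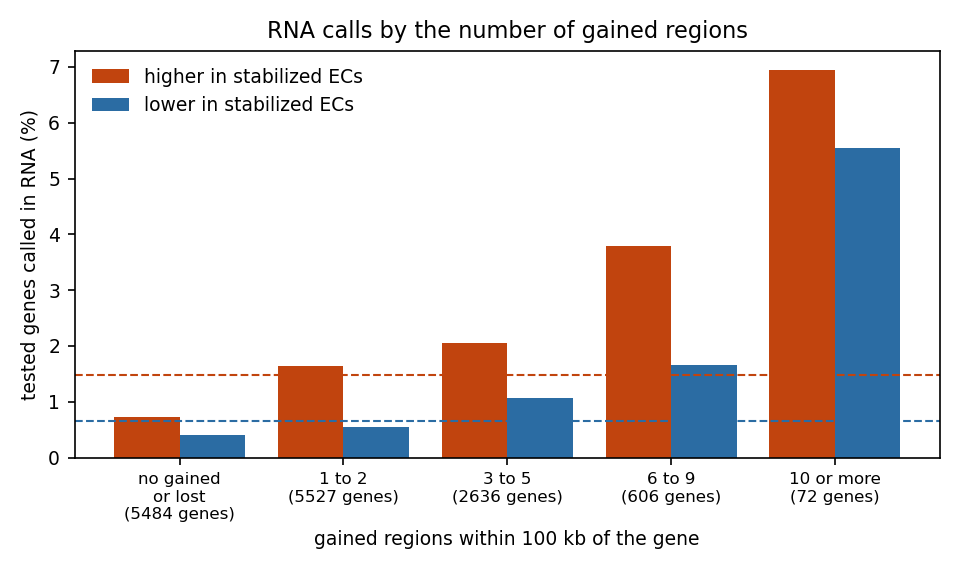
Percentage of tested protein-coding genes called higher (orange) or lower (blue) in stabilized posterior pituitary ECs, by the number of gained regions within 100 kb. Dashed lines give the share over all tested genes, 1.48% higher and 0.652% lower. Both shares are greatest for genes with 10 or more gained regions, of which there are 72.

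Wnt pathway genes had gained regions, and a share of them rose in RNA. Of 21 targets and regulators, 18 had a gained region within 100 kb (50.5% of all protein-coding genes did), and 9 did on the equal-length lists (23.0% of all). A lost region lay near 0 of them by the threshold (4.58% of all genes) and near 4 on the equal-length lists (13.4% of all). Without stabilized replicate 2, 18 of the list (55.4% of all genes) had a gained region. In RNA 7 rose and 0 fell, against 1.48% and 0.652% of all protein-coding genes tested. The median log2 change of the list was 3.70 (2.93 with genes at 0 in WT set to their lower bound), against 0.01 for all genes. Of the 66 gained regions near the list, 37.9% held a TCF/LEF match and 31.8% were cerebellum-type. In a fit of the 4 posterior pituitary libraries alone 4 rose, in place of 7 (94 of 14232 genes of all kinds did). The list holds textbook targets, so its direction is not independent of what is known of the pathway.

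Axin2, which encodes a negative regulator of beta-catenin and is a standard Wnt target, was at 2.06 and 1.40 CPM in WT and 78.3 and 108 CPM in stabilized ECs. The groups did not overlap, and the log2 change was 5.73 ± 1.16 (SE, edgeR adjusted p = 0.029). It had 4 gained regions, and those 9.47 kb upstream of its start (fold enrichment 3.62 and 3.14 in the stabilized libraries) and 16.2 kb downstream in an intron (7.64 and 7.03) are the Axin2 sequences printed above. The RNA call was lost without WT replicate 2 (adjusted p = 0.083) and kept when any 1 other library was left out. Both of these, and the one 60.3 kb downstream (7.61 and 7.71), were open in both WT cerebellum and in neither WT anterior pituitary library.

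Nkd1, which encodes another inhibitor of the pathway, was at 1.75 and 0.061 CPM in WT and 168 and 211 CPM in stabilized ECs. It rose by 7.56 ± 0.84 on the log2 scale (edgeR adjusted p = 0.00054). It had 9 gained regions within 100 kb of the gene body, 5 of them with a TCF/LEF match, and the highest was 26.0 kb upstream (8.82 and 5.49). Tnfrsf19, which encodes a receptor of the TNF family and is a Wnt target, was at 0 CPM in both WT libraries and at 288 and 307 CPM in stabilized ECs. Its rise was at least 11.1 on the log2 scale, counting each WT library at a floor of 3 counts (edgeR adjusted p = 2.9e-05). It had 6 gained regions, including one 0.05 kb from its start (8.85 and 9.41) and the intron region with 3 matches (11.2 and 10.6). No other gained region of the Wnt list was as high as the last.

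Notum, which encodes a secreted enzyme that inactivates Wnt ligands, was at 0 in both WT libraries and at 29.0 and 45.6 CPM in stabilized ECs, a rise of at least 8.08 on the log2 scale, and had 6 gained regions. Apcdd1, a Wnt inhibitor at the membrane, was at 42.1 and 45.2 CPM in WT and 506 and 627 CPM in stabilized ECs, with 1 gained region 15.8 kb upstream. Tcf7, which encodes a TCF/LEF factor, rose by 6.81 ± 1.097 with 2 gained regions. WT replicate 2 held 1 count of Nkd1 and 0 of Tcf7, against 56 and 9 in WT replicate 1, so the fitted sizes rest on WT replicate 1 and no fold without it is given. Neither gene passed in the fit of the 4 posterior pituitary libraries alone (edgeR adjusted p = 0.062 and 0.17). Reck, part of the receptor complex for Wnt7 ligands, rose by 2.18 ± 0.29 with 2. Lef1, the other TCF/LEF factor of the list, was at 1.03 and 5.84 CPM in WT and 162 and 153 CPM in stabilized ECs but did not pass (edgeR adjusted p = 0.053). It had 8 gained regions, of which 5 were gained on the equal-length lists and 1 lay 0.20 kb from its start. Znrf3, which removes Wnt receptors, had 10 gained regions and did not pass (adjusted p = 0.11, 5.65 and 0 CPM in WT, 48.8 and 47.5 CPM in stabilized ECs). The receptor genes Fzd4, Tspan12, Lrp6 and Adgra2 had 1 to 3 gained regions each, with log2 changes of −0.76 to −0.09, and none passed.

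**Figure D5:**
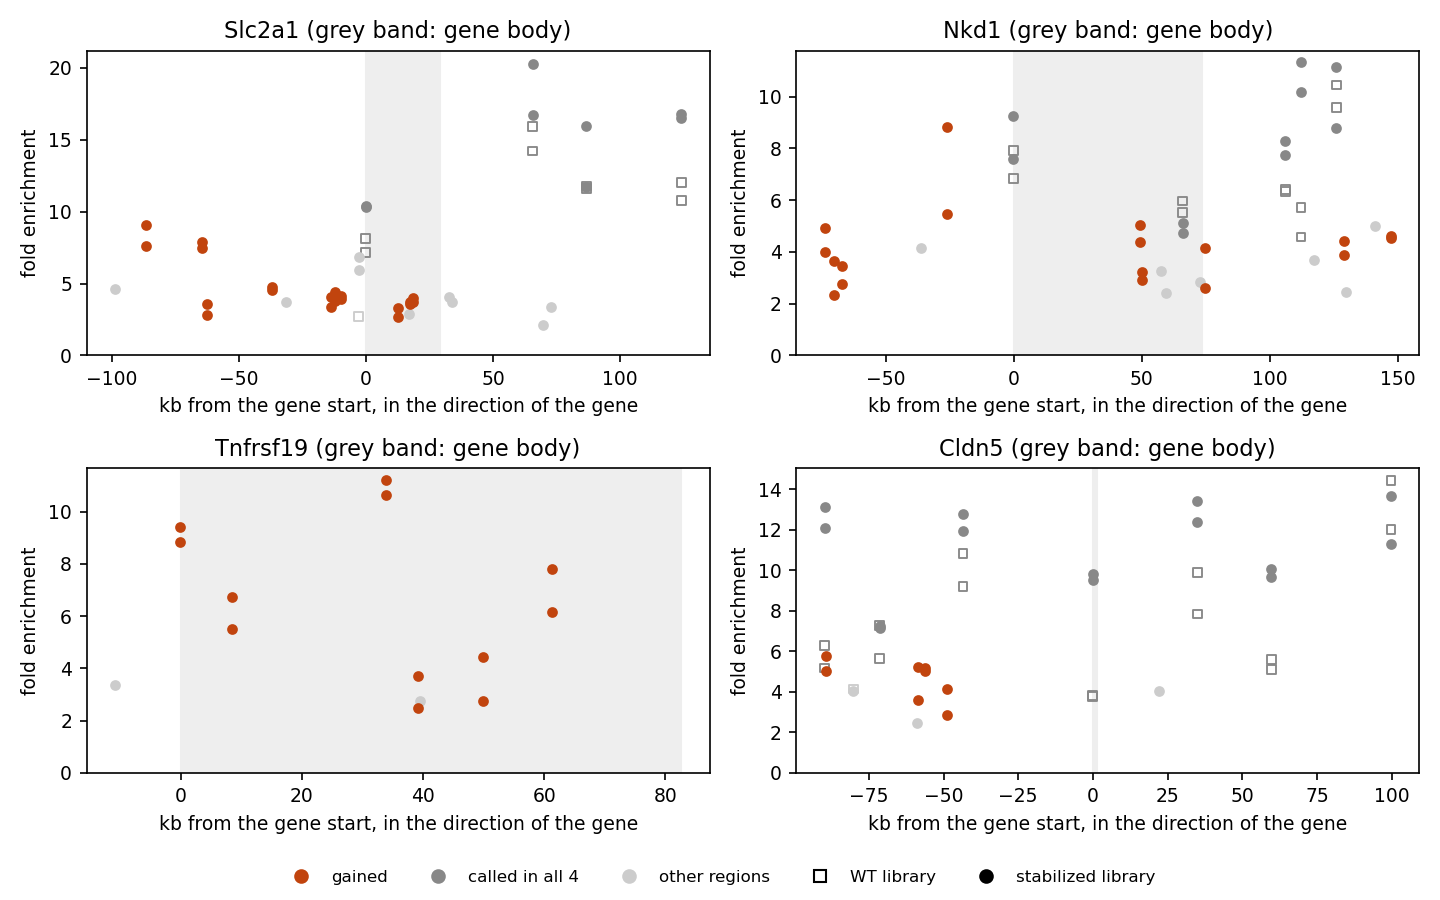
Fold enrichment of the peaks of each region against its distance in kb from the start of Slc2a1, Nkd1, Tnfrsf19 and Cldn5, in the direction of the gene, with the gene body as a grey band. Open squares are WT and filled circles stabilized libraries, with gained regions in orange and regions called in all 4 libraries in dark grey; a library with no peak has no mark. The 10 gained regions of Slc2a1 reach from 86.7 kb upstream to 18.7 kb downstream of its start.

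Most barrier transporter genes rose in RNA. Of 22 genes, 15 rose (1.48% of all genes did), 0 fell and 7 did not pass. In the fit of the 4 posterior pituitary libraries alone 9 rose (94 of 14232 genes of all kinds did). The median log2 change was 2.97. A gained region lay within 100 kb of 19 (50.5% of all genes), and of 12 on the equal-length lists (23.0% of all). A lost region lay near 0 by the threshold (4.58% of all) and near 3 on the equal-length lists (13.4% of all). Of the 67 distinct gained regions near them, 22.4% held a TCF/LEF match and 37.3% were cerebellum-type, the largest such share among the 7 gene lists that were no marker lists.

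Slc2a1, which encodes the glucose transporter GLUT1, was at 25.5 and 31.0 CPM in WT and 1423 and 1691 CPM in stabilized ECs, a log2 change of 5.78 ± 0.40 (edgeR adjusted p = 1.6e-05). It had 10 gained regions, 7 upstream of its start and 3 in the gene. The highest were 86.7 kb (fold enrichment 9.05 and 7.60) and 64.35 kb (7.91 and 7.48) upstream, both cerebellum-type and both gained on the equal-length lists. The Slc2a1 sequence above is that of the second. Slc2a1 itself had no gained region at its promoter.

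Mfsd2a, which encodes a lipid transporter that keeps transcytosis low in brain ECs, was at 0 and 0.061 CPM in WT and 182 and 173 CPM in stabilized ECs. It had 4 gained regions, among them one 0.03 kb from its start (5.50 and 6.09) and one 46.7 kb downstream with 2 matches (7.82 and 4.70). Slc35f2 was at 0 and 0.061 CPM in WT and 83.1 and 85.3 CPM in stabilized ECs, also with a gained region at its promoter (5.86 and 6.53) and a higher one with a match 23.1 kb into the gene (9.69 and 7.57). WT ECs had 1 count of each of these 2 genes over both libraries, so no fold is given. Both passed the test (edgeR adjusted p = 2.6e-06).

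Slc7a5, which encodes a large neutral amino acid transporter, was at 15.7 and 0.243 CPM in WT and 524 and 589 CPM in stabilized ECs (log2 change 6.10 ± 1.13, adjusted p = 0.019 in edgeR). WT replicate 2 held 4 counts against 503 in WT replicate 1, and without WT replicate 1 its fitted change was 11.2. It did not pass in the fit of the 4 posterior pituitary libraries alone (adjusted p = 0.21). The region 14.7 kb upstream of its start was among its 3 gained regions, at 9.16 and 10.0. Slco1a4 and Slco1c1, which encode transporters of organic anions and thyroid hormone, rose by 3.82 ± 0.47 and 6.72 ± 0.38 with 2 and 1 gained regions. Slc19a3, a thiamine transporter gene, was at 0 in both WT libraries and at 15.6 and 17.7 CPM in stabilized ECs, with 4 gained regions of which 3 held a match. Slc22a8, Slc40a1, Slc7a1, Slc38a3, Tfrc, Abcb1a and Abcg2 rose with 1 to 6 gained regions each, by 1.18 to 8.12 on the log2 scale. The size of the highest of these, Slc22a8, rests on WT replicate 1, which held 12 counts against 0 in WT replicate 2. The calls of Abcg2 and Slc38a3 were lost without stabilized replicate 1, that of Abcg2 also without stabilized replicate 2, and that of Tfrc without WT replicate 2. Abcc4, an efflux pump gene, had 8 gained regions and a log2 change of 0.06 ± 0.31 (adjusted p = 0.99).

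Of 13 tight junction genes, 11 had a gained region (50.5% of all genes did), 8 had one on the equal-length lists (23.0% of all), and 1 had a lost region (4.58% of all). In RNA 3 rose (1.48% of all) and 0 fell. In the fit of the 4 posterior pituitary libraries alone 1 rose (94 of 14232 genes of all kinds did). Cldn5, which encodes the main claudin of brain ECs, was at 41.3 and 16.1 CPM in WT and 224 and 269 CPM in stabilized ECs (log2 change 3.10 ± 0.48, edgeR adjusted p = 0.0059). The fitted change was 3.96 without WT replicate 1 and 2.58 without WT replicate 2. Cldn5 did not pass in the fit of the 4 posterior pituitary libraries alone (edgeR adjusted p = 0.081). Its 4 gained regions lay 48.7 to 89.3 kb upstream, between genes, and the one with 3 matches had a fold enrichment of 5.19 and 5.04. Ocln, which encodes occludin, was at 5.77 and 0.243 CPM in WT and 148 and 153 CPM in stabilized ECs (5.58 ± 0.84, adjusted p = 0.0051), with 4 gained regions, all open in both WT cerebellum libraries. Lsr, which encodes the tricellular junction protein angulin-1, was at 0.343 and 0 CPM in WT and 71.2 and 53.7 CPM in stabilized ECs, with 1 gained region 4.03 kb into the gene. WT replicate 2 held 4 counts of Ocln, whose fitted log2 change was 9.27 without WT replicate 1, and 0 counts of Lsr, for which no fold without WT replicate 1 is given. Tjp1, the gene of the scaffold protein ZO1, had 7 gained regions and a log2 change of 0.61 ± 0.25 that did not pass (adjusted p = 0.30).

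Of 16 genes of transcription factors tied to the barrier, 11 had a gained region (50.5% of all genes did), 7 had one on the equal-length lists (23.0% of all) and 13 had one without stabilized replicate 2 (55.4% of all). In RNA 2 rose, against 1.48% of all genes. In the edgeR fit of the 4 posterior pituitary libraries alone 0 rose (94 of 14232 genes of all kinds did). By DESeq2 4 rose (807 of 14776 did). Foxq1 was at 0 and 0.487 CPM in WT and 14.2 and 19.2 CPM in stabilized ECs, with 1 gained region 97.0 kb upstream that held a match. WT replicate 1 held 0 counts of Foxq1 and WT replicate 2 held 8, so no fold without WT replicate 2 is given. Etv6 and Sox7 had 8 and 7 gained regions, with log2 changes of 0.27 ± 0.35 and −0.165 ± 0.33. Of the 40 gained regions near the list, 22.5% held a match and 7.5% were cerebellum-type.

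Gained regions were also found near EC genes that did not rise. Of 14 pan-endothelial genes, 13 had a gained region (50.5% of all genes did) and 6 had one on the equal-length lists (23.0% of all), while all 14 had one without stabilized replicate 2 (55.4% of all). In RNA 0 rose and 2 fell (0.652% of all fell), and 0 rose and 0 fell in the edgeR fit of the 4 posterior pituitary libraries alone, where the adjusted p was 0.115 for Kdr and 0.22 for Pecam1. By DESeq2 over the 12 libraries 0 rose and 3 fell (807 and 377 of 14776 genes of all kinds). Kdr, which encodes the VEGF receptor VEGFR2, was at 4154 and 5269 CPM in WT and 1152 and 1383 CPM in stabilized ECs, with 5 gained regions of which none held a TCF/LEF match. Its log2 change was −1.89 ± 0.32 (edgeR adjusted p = 0.012). Pecam1 fell by 1.07 ± 0.24 (adjusted p = 0.048) with 6 gained regions, a call lost without any 1 of WT replicate 2, stabilized replicate 1 and stabilized replicate 2. Ets1, a factor of the ETS family, had 12 and did not pass (−0.39 ± 0.26, adjusted p = 0.51). Of the 68 gained regions near the list, 8.82% held a match.

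Of 20 genes of permeable capillaries, 14 had a gained region (50.5% of all genes did) and 7 had one on the equal-length lists (23.0% of all). In RNA 1 rose (1.48% of all) and 2 fell (0.652% of all). In the fit of the 4 posterior pituitary libraries alone 2 rose and 0 fell (94 and 12 of 14232 genes of all kinds). By DESeq2 3 rose and 2 fell (807 and 377 of 14776). Plvap, which encodes the protein of the diaphragms of fenestrae, was at 2106 and 2215 CPM in WT and 1585 and 1761 CPM in stabilized ECs. Its log2 change of −0.37 ± 1.39 did not pass (edgeR adjusted p = 0.97), and it had 10 gained regions and 0 lost regions within 100 kb, none with a TCF/LEF match. Of these 10, 8 were open in both WT anterior pituitary libraries, against 59.0% of all gained regions. Nrp1 and Plpp3 fell by 1.72 ± 0.25 and 1.85 ± 0.36 with 4 and 3 gained regions, and Vcam1 rose by 2.52 ± 0.42 with 3. The call of Plpp3 was lost without stabilized replicate 1, and those of Nrp1 and Plpp3 were lost in the fit of the 4 posterior pituitary libraries alone (edgeR adjusted p = 0.105 and 0.101). Aqp1, a water channel gene, was at 50.1 and 72.6 CPM in WT and 1755 and 2192 CPM in stabilized ECs with 7 gained regions, and did not pass (5.01 ± 1.295, adjusted p = 0.082). Of the 54 gained regions near the list, 3.70% held a match, below the 6.67% of all regions.

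Of 24 extracellular matrix and guidance genes, 22 had a gained region (50.5% of all genes did), 10 had one on the equal-length lists (23.0% of all), and 1 had a lost region (4.58% of all). In RNA 2 rose (1.48% of all) and 5 fell (0.652% of all). In the edgeR fit of the 4 posterior pituitary libraries alone 2 rose and 0 fell (94 and 12 of 14232 genes of all kinds). By DESeq2 3 rose and 8 fell (807 and 377 of 14776). Col4a1 and Col4a2, which lie head to head on chromosome 8 and encode collagen IV of the basement membrane, had 14 and 16 gained regions within 100 kb, counts that share regions. Col4a1 was at 2981 and 7082 CPM in WT and 893 and 1217 CPM in stabilized ECs (−2.25 ± 0.45, edgeR adjusted p = 0.028), and Col4a2 changed by −2.17 ± 0.43 (adjusted p = 0.025). None of the 14 regions of Col4a1 held a TCF/LEF match. Itga1, Efnb2 and Notch4 also fell, by 1.62 ± 0.29, 1.40 ± 0.26 and 1.68 ± 0.36. Fn1, the gene of fibronectin, was at 219 and 208 CPM in WT and 3676 and 5146 CPM in stabilized ECs (4.37 ± 0.42, adjusted p = 0.00018) with 2 gained regions, both open in stabilized cerebellum and in no anterior pituitary library. The other rise was that of Itga4, which encodes an integrin chain, by 2.44 on the log2 scale (edgeR adjusted p = 0.049) with 1 gained region, a call lost in the fit of the 4 posterior pituitary libraries alone (adjusted p = 0.35) and without any 1 of WT replicate 2, stabilized replicate 1 and stabilized replicate 2. All 5 falls lost their call without WT replicate 2, without stabilized replicate 1, and in a fit of the 4 posterior pituitary libraries alone, and that of Efnb2 also without stabilized replicate 2. Of the 72 gained regions near the list, 4.17% held a match.

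The genes with the most gained regions were mostly long. Gm20388 had 51 and spans 4435 kb, and Fgfr2 had 30 over an annotated 2961 kb. Arhgap26, under 2 gene identifiers, had 19 and 16, Tcf4 18, Syn3, Col4a2 and Cmip 16 each, and Col4a1 and Arl3 14 each. Of these 10, only Col4a1 and Col4a2 passed in RNA, and both fell. Neither the RNA counts nor the peak lists link a region to the gene it acts on, so distance alone stands for the pairing throughout.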

How the data were processed

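GFP-positive posterior pituitary ECs of 2 WT and 2 stabilized replicates were profiled by ATAC-seq and RNA-seq. The authors aligned ATAC-seq reads to mm10 with Bowtie2 2.3.2 and called peaks in each library alone with MACS2 2.1.1.20160309, and the deposited lists give each peak's fold enrichment (a ratio) and −log10 q. The number of reads behind them is unknown. For RNA, the authors deposited Salmon 0.10.2 estimated counts and TPM per transcript, and TPM was not used. Names and versions are from the submitters' processing notes.

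Peaks listed more than once for several summits were joined, and positions were read against GRCm38 with its GENCODE gene annotation. Estimated counts were summed to genes (130254 of 130740 transcripts matched, at least 99.6% of reads) and rounded, then tested with edgeR 4.0.16 (quasi-likelihood, TMM, filterByExpr) over the 12 libraries, since 2 against 2 leaves few degrees of freedom. Heights of regions called in all 4 libraries were tested with limma 3.58.1 on median-centred log2 fold enrichment. Both used Benjamini-Hochberg adjustment over all features, and both were tested on simulated data (height recovered 100.0% of 200 regions changed 4-fold in 16155, RNA 31.0% of 200 genes). False calls were 6 for height and 3 for RNA. The simulated heights all shared the same spread, so their recovery does not measure the power at real regions. CPM values are TMM-scaled. The study's methods describe the replicates as independent, each made from a pool of mice. RNA tissue was read from titles, as 1 anterior pituitary library carries another tissue tag.

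Regions were named as the 10 gained and 10 lost of highest lower-of-replicates fold enrichment, and the 5 greatest rises and falls in height. Genes were named list by list where a gained or lost region lay within 100 kb, and as the 10 with most gained and most lost regions. The values of genes that did not pass were added after seeing them, and some list genes are not reported here. The members and gene lists were chosen with earlier results of these data known. Alternatives were the equal-length lists of 20000 peaks, a stricter threshold (fold enrichment 4, −log10 q 5), other distances, windows, scalings and tools (DESeq2 1.42.0), and leaving out each library.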

Additional observations from a re-analysis of the deposited data

How the results depend on the processing

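None of the 37 named genes called in RNA and none of the 10 named regions of the height test reversed direction under the alternatives that were run, but many values moved. Named genes that did not pass were not repeated singly. On the 20000 strongest peaks of each library there were 1868 gained and 1328 lost regions, of which 41.5% of the gained were called in both WT cerebellum and 56.0% in both stabilized anterior pituitary libraries, against 30.9% and 82.9% by the threshold. There, 18.4% of gained regions held a TCF/LEF match, 19.8% of lost regions lay at promoters, 2.49% of genes near gained regions were higher, and 671 regions called in all 4 libraries were higher. With fold enrichment over 4 and −log10 q over 5, 254 were lost, and 29.8% and 89.2% of gained regions were in both WT cerebellum and both stabilized anterior pituitary libraries. With TCF/LEF windows of 50 bp and 200 bp on either side, 8.24% and 23.9% of gained and 1.48% and 7.61% of lost regions held a match. With promoters of 250 bp on either side, 8.65% of gained and 4.82% of lost regions were promoters. By the nearest start alone, 3.6% of genes near gained regions were higher and 1.44% lower, and 2.32% of those near lost regions were higher. For height, no centring gave 6945 higher and 174 lower, and quantile normalization 362 lower. For RNA of all genes (226 higher, 100 lower), no filter gave 588 and 364, the 4 posterior pituitary libraries alone 94 and 12, and DESeq2 807 and 377. The cause of these shifts was not tested, other than that a nearest-start rule, a wider window and no filter change what is counted by construction.

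Leaving out 1 library at a time gave 8536 to 18556 gained and 646 to 1576 lost regions. The other library of its group then decides alone, so both counts tend to rise by construction. Shares of gained and lost regions in this paragraph are shares of those larger sets. Of the gained regions, 15.5% to 32.3% were in both WT cerebellum and 58.6% to 84.5% in both stabilized anterior pituitary libraries. TCF/LEF matches were in 9.64% to 15.0% of gained and 2.18% to 3.25% of lost regions, and in 30.7% to 38.2% of the gained cerebellum-type regions. Promoters held 15.3% to 16.6% of gained and 10.7% to 15.0% of lost regions. Height gave 0 to 129 higher and 0 to 382 lower regions, and RNA 179 to 772 higher and 20 to 372 lower genes. Of genes near gained regions, 1.66% to 1.89% were higher and 0.735% to 0.824% lower, and near lost regions 0.90% to 1.38% and 0.822% to 0.948%. Without X and Y, added after seeing the data, there were 7330 gained and 413 lost regions. Of 37 named genes called in RNA, 21 lost the call in the fit of 4 libraries, 10 without stabilized replicate 1, 9 without WT replicate 2 and 4 without stabilized replicate 2, and 0 under the other settings.

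Same-numbered libraries did not deviate together (correlation 0.013 for height over 16155 regions, 0.021 for RNA over 17900 genes), so the numbers do not pair them. A replicate block gave 336 higher and 647 lower regions and 256 higher and 125 lower genes. Neither read depth nor duplicates can be judged from peak lists, so a region without a peak is one that was not called, not one shown to be closed.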
